A study of Mus musculus with 5 samples.

Results

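The genes described are 31 that fold proteins in the endoplasmic reticulum (ER) or take part in the unfolded protein response, listed by name, with no threshold on a measured value. The list was drawn up with earlier results of these data known. They were followed through 5 libraries of single cells from mouse gut organoids, which are cultures of gut epithelium grown as hollow structures in a gel. All 31 had at least 1 unique molecular identifier (UMI, a tag that marks 1 captured RNA molecule) in each library, out of 18323 genes with a UMI in any library. They comprise 15 ER chaperones and oxidoreductases, 3 genes of the stress sensors (Xbp1, Ern1 and Atf6), 4 genes of the Atf4 branch (Atf4, Ddit3, Trib3 and Asns), 5 genes of ER-associated degradation, 3 of the channel through which proteins enter the ER, and the ER selenoprotein Selm.

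The libraries were made from fetal intestinal organoids of genotype WT (fetal), and from small intestinal organoids of genotype WT (WT), of genotype Lkb1 +/- (het) and of genotype Lkb1 -/- (Bud and Cys, named after marks in their titles that the labels do not explain). Lkb1, also called Stk11, encodes a kinase that activates AMPK. The age of the donor animals, the edited part of Lkb1, and whether an organoid line came from 1 clone are not given in the labels. All organoids were described as grown with Egf, R-spondin and Noggin, then broken up with TrypLE and sorted as single cells into 1 plate of 384 wells per library. Bud and Cys were kept as groups of their own, so each of the 5 groups had 1 library and no replicate. No p-value is therefore given, and each comparison, of an Lkb1 genotype or of the fetal culture with WT or of these with each other, describes the libraries compared. Levels are UMIs of a gene scaled to 1000000 UMIs of the library (CPM), and brackets hold 95% intervals that cover counting error only.

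The ER is where secreted and membrane proteins enter the cell's export route and are folded. When unfolded protein builds up there, 3 sensors respond: ATF6 is cut into a transcription factor, IRE1 (gene Ern1) splices the mRNA of the factor XBP1, and PERK phosphorylates eIF2alpha, which lowers translation and favours synthesis of ATF4. ATF6 and XBP1 are known to drive ER chaperones and degradation genes, while ATF4 drives amino acid synthesis and, with CHOP (gene Ddit3), late stress genes, and can also be raised by amino acid shortage through other kinases. In the gut epithelium, mucus-making goblet cells and Paneth cells carry a large ER.

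After wells under 1000 UMIs were left out, 302 (WT) to 371 (fetal) wells per library remained, with 4035219 to 5865507 UMIs in all and a median of 10414 (Cys) to 14637 (fetal) per well. Well names are plate positions shared by all libraries, so a shared name is not a shared cell. A single Cys well held 9.08% of that library's UMIs, against at most 1.41% in the largest well of the other libraries. Wells with over 2% of UMIs from Kcnq1ot1, a transcript often high in damaged cells, made up 0.539% (fetal) to 17.1% (het) of wells. The ribosomal RNA Rn45s took 6.36% of UMIs in Cys and 2.71% to 3.505% in the other libraries. Lkb1 itself (Stk11) was read at 20.6 CPM in WT and 9.03 in Cys, but a 3' tag outside an unknown edit checks no genotype.

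The cell makeup of the libraries also differed, by markers of other cell types summed as CPM. The 10 enterocyte markers summed to 1564 CPM in WT, 2605 in het, 276 in Bud, 19.7 in Cys and 6.99 in fetal, with 5 of them, Fabp1 included, at 0 in fetal. The 6 stem cell markers summed to 1948 CPM in WT, 1615 in het, 1842 in Bud, 378 in Cys and 539.6 in fetal, with Smoc2 at 0 in fetal and Olfm4 at 0 in Cys. Of the gut's secretory cells, the 10 goblet markers summed to 1395 CPM in WT, 2279 in het, 2085 in Bud, 1008 in Cys and 134 in fetal, with Muc2, Tff3 and Tpsg1 at 0 in fetal and Clca1 at 0 in Cys. The Paneth markers summed to 157 CPM in WT, 435 in het, 299.6 in Bud, 30.3 in Cys and 660.5 in fetal, where 99.9% of the fetal sum was Mmp7 and Defa17, Defa24, Ang4 and Mptx1 were at 0. The enteroendocrine markers summed to 203 CPM in WT, 509.9 in het, 70.0 in Bud, 1.00 in Cys and 0.682 in fetal, with Chga, Chgb, Tac1 and Cck at 0 in Bud, Cys and fetal. The 6 tuft cell markers measured summed to 22.8 CPM in WT, 142 in het, 8.33 in Bud, 43.4 in Cys and 114 in fetal, of which 94.0% was Avil in Cys and 81.2% Dclk1 in fetal, where Trpm5 and Rgs13 were at 0. The 8 markers of dividing cells summed to 1209.8 CPM in WT, 1056 in het, 964 in Bud, 963 in Cys and 719 in fetal, with 5 of 8 called lower in fetal than in WT. The 9 gastric markers summed to 5031 CPM in Cys, with Pgc at 0, and to 12.7 to 58.5 in the other libraries. Markers of the adult enterocyte, the main cell of the labelled tissue, were thus close to 0 in the fetal and Cys libraries. Immune markers summed to 1.81 to 6.94 CPM and mesenchymal markers to 1.41 to 2.62. The endothelial sum of 333 in Cys was all Tek, with Pecam1, Cdh5, Kdr and Emcn at 0. The part of these differences in the results on the ER genes was not tested, apart from the wells rich in secretory markers described further on.

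The ER chaperones and the Atf4 branch differed in opposite directions between Cys and WT, and also between fetal and WT, while the sums of Bud and het lay closer to those of WT. The 15 chaperones together took 3228 CPM in WT, 3269 in het, 3191 in Bud, 4988 in Cys and 4272 in fetal. The 4 Atf4 branch genes together took 835 CPM in WT, 747 in het, 838 in Bud, 429 in Cys and 291 in fetal. Cys thus had the highest chaperone sum and fetal the lowest Atf4 branch sum.

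Against WT, the chaperone sum was 1.55 (1.51 to 1.58) times as high in Cys and 1.32 (1.30 to 1.35) times as high in fetal. The corresponding ratio was 1.01 (0.989 to 1.04) in het and 0.989 (0.965 to 1.01) in Bud, both intervals hold 1, and other scalings turned either sign: the log2 ratio of Bud went from -0.02 to 0.02 with median-of-ratios scaling and that of het from 0.02 to -0.11 with equal weight for each well. The Atf4 branch sum fell below that of WT by a factor of 1.94 (1.84 to 2.05) in Cys and of 2.87 (2.71 to 3.05) in fetal. In het it was lower by a factor of 1.12 (1.06 to 1.17), but this rests on Asns: without it, an alternative chosen after seeing the data, the log2 ratio turned from -0.16 to 0.044. In Bud the ratio to WT was 1.00 (0.957 to 1.05), with log2 ratios of 0.26 without Asns and -0.37 without Atf4. In descending order the chaperone sum ran Cys, fetal, het, WT, Bud, and counting error did not tell het from WT or WT from Bud. Het and Bud were barely told apart, at a ratio of 1.02 with the interval leaving out 1. The Atf4 branch ran Bud, WT, het, Cys, fetal, and only Bud and WT were not told apart.

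Per UMI of the Atf4 branch, WT held 3.87 (3.72 to 4.02) chaperone UMIs, het 4.37 (4.21 to 4.54), Bud 3.81 (3.67 to 3.95), Cys 11.6 (11.1 to 12.1) and fetal 14.7 (14.0 to 15.4). On the log2 scale, the chaperone ratio to WT minus the Atf4 branch ratio to WT came to 1.59 (1.503 to 1.67) for Cys and 1.93 (1.84 to 2.02) for fetal, and to 0.18 (0.10 to 0.25) for het and -0.02 (-0.10 to 0.05) for Bud. These values share the WT library. Set directly against Bud, the other Lkb1 -/- library, Cys had a chaperone sum 1.56 (1.53 to 1.60) times as high and an Atf4 branch sum lower by a factor of 1.95 (1.85 to 2.06). Against fetal, Cys was 1.17 (1.15 to 1.19) times as high in chaperones and 1.48 (1.38 to 1.57) times as high in the Atf4 branch. Atf4 and Asns are the main part of the branch sum. Without Atf4 in the sum, the log2 difference between the sums in Cys against fetal turned from -0.34 to 0.05. Without Asns, that in het against WT turned from 0.18 to -0.03.

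**Figure D1:**
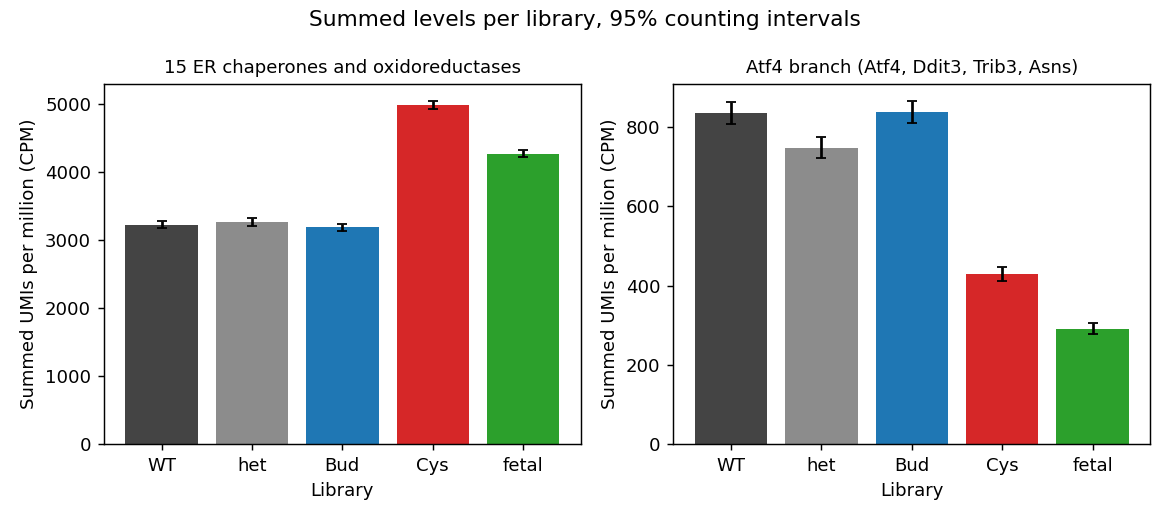
Summed level of the 15 ER chaperones (left) and of the 4 Atf4 branch genes (right) in each library, in CPM on axes from 0. Bars are the sums of 1 library each and error bars are exact Poisson 95% counting intervals. The chaperone bar is highest in Cys (4988 CPM) and the Atf4 branch bar lowest in fetal (291 CPM).

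Single genes were compared by the same ratio. A gene was called higher or lower when its CPM differed by 1.5-fold or more, the interval left out 1 and both libraries together held 10 or more of its UMIs. Among all genes, 17.6% were called higher and 22.0% lower in Cys than in WT. Of the 15 chaperones, 9 were called higher in Cys and 0 lower. Their median log2 ratio, with 10 CPM added to both levels, was 0.58 against -0.06 over all genes. In fetal against WT, 5 of 15 were called higher and 0 lower, where 29.4% of all genes were called higher and 22.3% lower. That share of 15 is near the background of this comparison. The median over the 15 was 0.35 and over all genes 0.06.

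The ER form of Hsp70, Hspa5 (BiP), which binds unfolded chains and holds the sensors inactive, had 428 CPM in WT, 502 in het, 513 in Bud, 768 in Cys and 722 in fetal. It was higher than in WT by 1.79-fold (1.70 to 1.90) in Cys and by 1.69-fold (1.59 to 1.78) in fetal. Cys and fetal stood above the other libraries for this gene, with no overlap of their counting intervals with those of WT, het or Bud. Hsp90b1 (Grp94), the ER form of Hsp90, had 436 CPM in WT, 444 in het, 449 in Bud, 643 in Cys and 794 in fetal. It was called higher in fetal, by 1.82-fold (1.73 to 1.93), whereas its ratio of 1.48 (1.39 to 1.57) in Cys missed the 1.5-fold limit.

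The lectin chaperones Calr and Canx, which hold glycoproteins during folding, did not run in parallel. Calr, the soluble one, had 554 CPM in WT, 378 in het, 476 in Bud, 1075 in Cys and 574 in fetal, and was called higher in Cys by 1.94-fold (1.85 to 2.04). Its fetal level was close to that of WT, at a ratio of 1.04 (0.982 to 1.09). Canx, its membrane-bound relative, had 377 CPM in WT, 394 in het, 383 in Bud, 387 in Cys and 506 in fetal, and was called in none of the 4 comparisons with WT. Of the Calr UMIs in Cys, 10.98% came from 1 well.

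The protein disulfide isomerases form and shuffle disulfide bonds. Pdia6 had 251 CPM in WT, 262 in het, 299.8 in Bud, 589 in Cys and 402 in fetal, and was higher than in WT by 2.34-fold (2.18 to 2.52) in Cys and 1.60-fold (1.49 to 1.72) in fetal. Pdia3, the isomerase that works with the lectin chaperones, had 125 CPM in WT, 113 in het, 133 in Bud, 283 in Cys and 197 in fetal, with a ratio to WT of 2.27-fold (2.05 to 2.52) in Cys and 1.58-fold (1.42 to 1.76) in fetal. Pdia4 had 29.5 CPM in WT, 25.5 in het, 34.8 in Bud, 61.6 in Cys and 40.2 in fetal, and was called higher in Cys, by 2.09-fold (1.69 to 2.605), while its fetal ratio was 1.36 (1.09 to 1.72). P4hb, the classical isomerase, stood apart: it had 643 CPM in WT, 781 in het, 485 in Bud, 531 in Cys and 585 in fetal, with het as the highest library. Its ratio to WT was 0.825 (0.781 to 0.871) in Cys and no comparison called it.

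Sdf2l1, a partner of BiP in the folding of new chains, had the largest ratio of the 15 in Cys. It had 17.1 CPM in WT, 13.9 in het, 27.1 in Bud, 61.8 in Cys and 19.3 in fetal. It was higher by 3.62-fold (2.78 to 4.77) in Cys and by 1.59-fold (1.17 to 2.17) in Bud. The fetal ratio was 1.13 (0.828 to 1.54). Manf, a secreted ER protein that binds BiP, had 148 CPM in WT, 132 in het, 143 in Bud, 267 in Cys and 199.8 in fetal, and was higher by 1.80-fold (1.63 to 1.99) in Cys. Hyou1, the large Hsp70 that recharges BiP, had 38.4 CPM in WT, 43.5 in het, 48.1 in Bud, 62.4 in Cys and 37.5 in fetal, higher by 1.63-fold (1.34 to 1.98) in Cys.

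The J-domain proteins recruit BiP to its clients. Dnajc3, which also restrains PERK, had 70.9 CPM in WT, 82.1 in het, 71.2 in Bud, 110.2 in Cys and 78.6 in fetal, and was called higher in Cys by 1.56-fold (1.35 to 1.80). Dnajb9 had 13.4 CPM in WT, 18.7 in het, 10.0 in Bud, 15.9 in Cys and 26.9 in fetal: it was called higher in fetal, by 2.01-fold (1.47 to 2.80), and its Cys ratio was 1.19 (0.828 to 1.71). Dnajb11 had 55.3 CPM in WT, 52.3 in het, 61.4 in Bud, 78.5 in Cys and 48.6 in fetal, with a ratio in Cys of 1.42 (1.20 to 1.68). Creld2, an ER protein induced by stress, had 41.6 CPM in WT, 26.8 in het, 57.4 in Bud, 54.8 in Cys and 40.9 in fetal. It was the only one of the 15 called lower in het, by 1.55-fold (1.22 to 1.98).

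**Figure D2:**
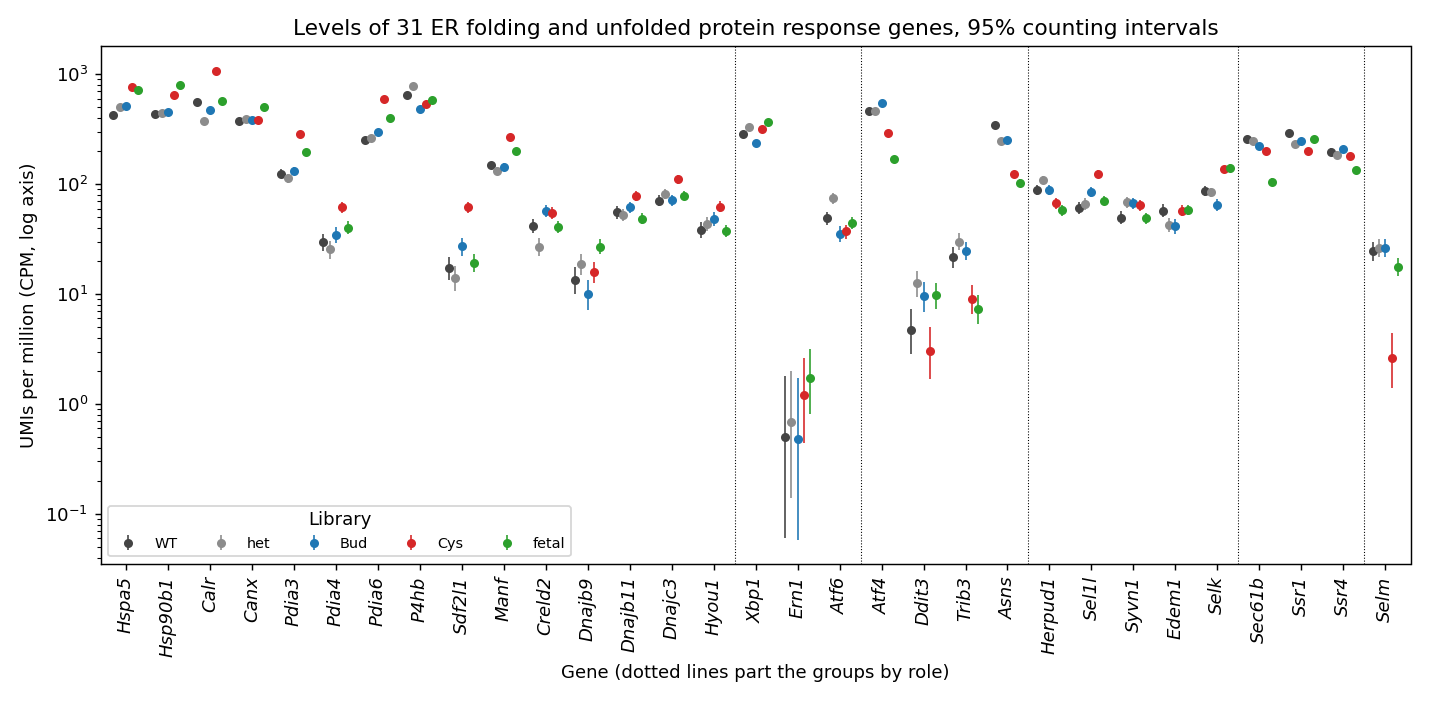
Level of each of the 31 genes in each of the 5 libraries, in CPM on a log axis. Points are single libraries, lines are exact Poisson 95% counting intervals, and dotted lines part chaperones, sensors, Atf4 branch, degradation, translocation and Selm. Hspa5, Pdia3, Pdia6 and Manf have their 2 highest points in Cys and fetal, Asns has its 2 lowest there, and Selm is lowest in Cys (2.61 CPM).

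ATF6 and XBP1 are known to act through the ER stress response element (ERSE), and promoters of the chaperones were therefore searched for it on both strands, spelled CCAAT and, after any 9 bases, CCACG. RefSeq promoters of the assembly GRCm38.p6, from 250 bases before to 50 after a gene's start, were matched for 28 of the 31 genes; Manf, Hyou1 and Atf6 had no entry. The element was found in 7 of the 13 chaperones with a promoter (53.8%) and in Syvn1 of the degradation genes. Among all 32851 promoters of that length it was found in 39 (0.119%). Element and genes were both picked for their known link, so the gap to all promoters is no finding of these data. A match of letters is a description and not a bound site. The sites are shown because they are what these chaperone promoters share, each read in the direction of the element with its fixed letters in capitals.

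Hspa5: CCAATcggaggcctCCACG
Hsp90b1 far: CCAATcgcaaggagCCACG
Hsp90b1 near: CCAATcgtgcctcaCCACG
Calr: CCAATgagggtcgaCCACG
Canx: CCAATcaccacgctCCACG
Pdia6: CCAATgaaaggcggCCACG
Creld2: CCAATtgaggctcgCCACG
Dnajc3: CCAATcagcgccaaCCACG
Syvn1: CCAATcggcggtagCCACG

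They lay at chr2:34772025-34772043 for Hspa5, chr10:86705638-86705656 and chr10:86705533-86705551 for the far and near site of Hsp90b1, chr8:84847075-84847093 for Calr, chr11:50325800-50325818 for Canx, chr12:17266491-17266509 for Pdia6, chr15:88819520-88819538 for Creld2, chr14:118937827-118937845 for Dnajc3 and chr19:6046532-6046550 for Syvn1. Their outer ends were 44 (Syvn1) to 212 (Hsp90b1) bases before the gene's start, upstream of the transcribed part. Holding the letters did not go with being called in Cys gene by gene: Hspa5, Calr, Pdia6 and Dnajc3 held them and were called higher, Canx, Hsp90b1 and Creld2 held them and were not called, and Sdf2l1, Pdia3 and Pdia4 were called higher with no match in this window. The related element ERSE-II, spelled ATTGG and, after any 1 base, CCACG, was found in no promoter that held the first spelling among the 31 genes but in Dnajb11 and Herpud1, against 12 of all promoters (0.0365%). The whole upstream stretch is shown for 3 genes that were higher in Cys and hold the element, picked with both known. Capitals mark the element in the direction of the gene. The stretch is also shown for Asns, which was lower and had no match to the exact spellings searched.

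Hspa5: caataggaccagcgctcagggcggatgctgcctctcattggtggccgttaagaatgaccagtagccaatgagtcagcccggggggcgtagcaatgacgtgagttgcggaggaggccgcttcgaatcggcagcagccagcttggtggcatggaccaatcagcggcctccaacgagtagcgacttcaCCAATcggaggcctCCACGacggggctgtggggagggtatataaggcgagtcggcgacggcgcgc
Calr: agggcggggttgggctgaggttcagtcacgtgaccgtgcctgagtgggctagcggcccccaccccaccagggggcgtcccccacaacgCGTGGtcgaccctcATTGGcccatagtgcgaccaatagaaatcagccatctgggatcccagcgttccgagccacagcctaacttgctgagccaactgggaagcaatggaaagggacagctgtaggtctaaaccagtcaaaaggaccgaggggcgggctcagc
Pdia6: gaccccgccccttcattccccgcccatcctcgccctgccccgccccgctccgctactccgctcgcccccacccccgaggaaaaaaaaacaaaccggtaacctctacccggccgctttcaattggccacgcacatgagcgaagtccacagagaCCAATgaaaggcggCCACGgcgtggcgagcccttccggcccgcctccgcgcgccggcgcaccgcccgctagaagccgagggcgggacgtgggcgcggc
Asns: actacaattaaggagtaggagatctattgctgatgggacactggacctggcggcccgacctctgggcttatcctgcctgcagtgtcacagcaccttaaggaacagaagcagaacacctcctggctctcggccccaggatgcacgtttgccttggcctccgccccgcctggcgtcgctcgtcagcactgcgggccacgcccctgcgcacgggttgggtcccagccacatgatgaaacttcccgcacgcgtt

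These 250-base stretches are chr2:34771840-34772089 on the forward strand for Hspa5, chr8:84846932-84847181 on the reverse strand for Calr, chr12:17266339-17266588 on the forward strand for Pdia6 and chr6:7693210-7693459 on the reverse strand for Asns, each printed 5' to 3' and ending at the base before the gene's start. In Calr the element lies on the opposite strand, so its capitals read as the reverse complement. The binding site of ATF4 with C/EBP partners, the CARE, was searched as TGATGNAAT and by its core TGATGCAA, spellings that can overlap, on both strands. Neither was in the windows of Atf4, Ddit3, Trib3 or Asns, which says only that these letters are not there. The printed Asns stretch holds TGATGAAAC, which differs from TGATGNAAT only in the last base. The search for so exact a spelling therefore cannot say that a gene lacks a CARE. The core was found in Herpud1 and in 8 of 27 further genes known as ATF4 targets with a promoter (29.6%), against 294 of all promoters (0.895%). The spelling TGATGNAAT was found in 3 of these 27 and in 317 of all promoters (0.965%). These genes were listed as known ATF4 targets, so their shares are likewise no finding of these data.

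The Atf4 branch was lower in Cys and in fetal in Atf4, Trib3 and Asns. In Cys against WT 3 of 4 were called lower and none higher, with a median log2 ratio of -0.68 against -0.06 over all genes, and shares called over all genes of 17.6% higher and 22.0% lower. In fetal against WT 3 were called lower and 1 higher, with a median of -1.12 against 0.06 over all genes, and shares called of 29.4% higher and 22.3% lower. Atf4, the transcription factor itself, had 462 CPM in WT, 460.5 in het, 549 in Bud, 294 in Cys and 171 in fetal, and was lower by 1.57-fold (1.46 to 1.68) in Cys and 2.71-fold (2.50 to 2.92) in fetal. Its highest level was in Bud, at a ratio to WT of 1.19 (1.12 to 1.27). Because ATF4 is controlled to a large part at translation, mRNA levels do not measure its protein.

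Asns, which makes asparagine and is a standard ATF4 target, had 347 CPM in WT, 244 in het, 254 in Bud, 123 in Cys and 103 in fetal. It was lower by 2.82-fold (2.56 to 3.11) in Cys and 3.37-fold (3.06 to 3.71) in fetal. WT was the highest library for Asns: the ratio to WT was 0.705 (0.650 to 0.764) in het and 0.733 (0.676 to 0.794) in Bud, and neither was called. Trib3, a pseudokinase that feeds back on ATF4, had 21.6 CPM in WT, 30.0 in het, 24.8 in Bud, 9.03 in Cys and 7.33 in fetal, lower by 2.39-fold (1.65 to 3.50) in Cys and 2.94-fold (2.02 to 4.34) in fetal. Of its 45 Cys UMIs, 22.2% came from 1 well.

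Ddit3, the death-promoting factor CHOP, had 4.71 CPM in WT, 12.5 in het, 9.53 in Bud, 3.01 in Cys and 9.72 in fetal, on 15 (Cys) to 57 (fetal) UMIs. It was called higher than in WT in het, by 2.66-fold (1.55 to 4.74), in Bud, by 2.02-fold (1.14 to 3.70), and in fetal, by 2.06-fold (1.21 to 3.67). In Cys its ratio to WT was 0.640 (0.302 to 1.33), not called. All 3 calls rest on the 19 UMIs of WT: against het, the log2 ratio of Bud turned from 0.41 to -0.21 and that of fetal from 0.42 to -0.19. In the annotation Ddit3 overlaps Mars1 and Mbd6, Hspa5 overlaps Rabepk, Pdia3 Catsper2, Pdia6 Atp6v1c2 and Syvn1 Mrpl49. The sources used here do not say whether reads were counted by strand, so reads of such pairs may not be told apart.

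Of the genes listed here with the sensors, Xbp1, Ern1 and Atf6, none was called in Cys or fetal against WT. Eif2ak3, the gene of the sensor PERK, is not among the 31 and is counted with the other regulators further on. It was called higher in fetal than in WT and was not called in Cys. Xbp1, whose total transcript was counted and not its spliced form, had 284 CPM in WT, 331 in het, 235 in Bud, 315 in Cys and 369 in fetal, with a ratio to WT of 1.11 (1.03 to 1.20) in Cys and 1.30 (1.21 to 1.40) in fetal. Atf6 had 48.8 CPM in WT, 74.2 in het, 35.5 in Bud, 37.1 in Cys and 44.2 in fetal, and was called higher in het by 1.52-fold (1.27 to 1.82). Without the largest well of each library, an alternative chosen after seeing the data, its log2 ratio in het was 0.49 in place of 0.52 and the call was lost. Ern1 had 2 (WT and Bud) to 10 (fetal) UMIs, too few to compare in 4 of the 6 comparisons.

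The other 9 genes of the set had few calls. For ER-associated degradation, which returns misfolded proteins to the cytosol, Sel1l, the scaffold of the ubiquitin ligase, had 60.5 CPM in WT, 66.0 in het, 84.8 in Bud, 124 in Cys and 70.6 in fetal and was higher in Cys by 2.06-fold (1.77 to 2.39). Selk, a selenoprotein of the same machinery, had 86.7 CPM in WT, 84.0 in het, 64.8 in Bud, 137 in Cys and 142 in fetal, higher by 1.57-fold (1.38 to 1.80) in Cys and by 1.63-fold (1.44 to 1.85) in fetal. Herpud1, a stress-induced partner of the ligase, went the other way with 88.7 CPM in WT, 109 in het, 88.1 in Bud, 66.6 in Cys and 57.6 in fetal, lower in fetal by 1.54-fold (1.32 to 1.79) and at a ratio of 0.751 (0.645 to 0.875) in Cys. The ligase Syvn1 (48.9 to 68.3 CPM) and the mannosidase-like Edem1 (41.2 to 58.3 CPM) were called in none of the 6 comparisons.

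In the translocation channel, Sec61b had 259 CPM in WT, 245 in het, 223 in Bud, 198 in Cys and 105 in fetal, lower in fetal by 2.47-fold (2.23 to 2.73). The signal sequence receptor subunits Ssr1 and Ssr4 were called in none of the 6 comparisons. They ranged from 202 to 289 and from 135 to 209 CPM. The median log2 ratio in Cys was 0.58 over the 15 chaperones and -0.37 over the 3 channel genes. Selm, an ER selenoprotein with a thioredoxin-like fold, had 24.5 CPM in WT, 26.4 in het, 26.2 in Bud, 2.61 in Cys and 17.7 in fetal. It was lower in Cys by 9.40-fold (5.25 to 18.3), on 13 UMIs against 99, the largest ratio of any of the 31 genes in that comparison. Of the 99 UMIs in WT, 59 came from the wells rich in secretory markers described further on. Outside such wells Selm had 10.4 CPM in WT, 12.2 in het, 6.97 in Bud and 2.23 in Cys, a smaller gap than over all wells.

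Of the 31 genes, 30 could be compared in het, Bud and Cys against WT and all 31 in fetal. Of them 2 were called higher and 1 lower in het against WT (background 8.43% and 8.83% of all genes), and 2 and 0 in Bud against WT (background 5.79% and 8.67%). Both are near or under the background. In Cys against WT the counts were 11 and 4, beside 17.6% higher and 22.0% lower of all genes. In fetal against WT they were 7 and 5, beside 29.4% higher and 22.3% lower of all genes. The count of lower genes in Cys and both fetal counts are thus under the share over all genes. The median log2 ratio of the chaperones was 0.03 in het and 0.08 in Bud, against -0.02 and -0.04 over all genes. The 4 comparisons share the WT library.

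**Figure D3:**
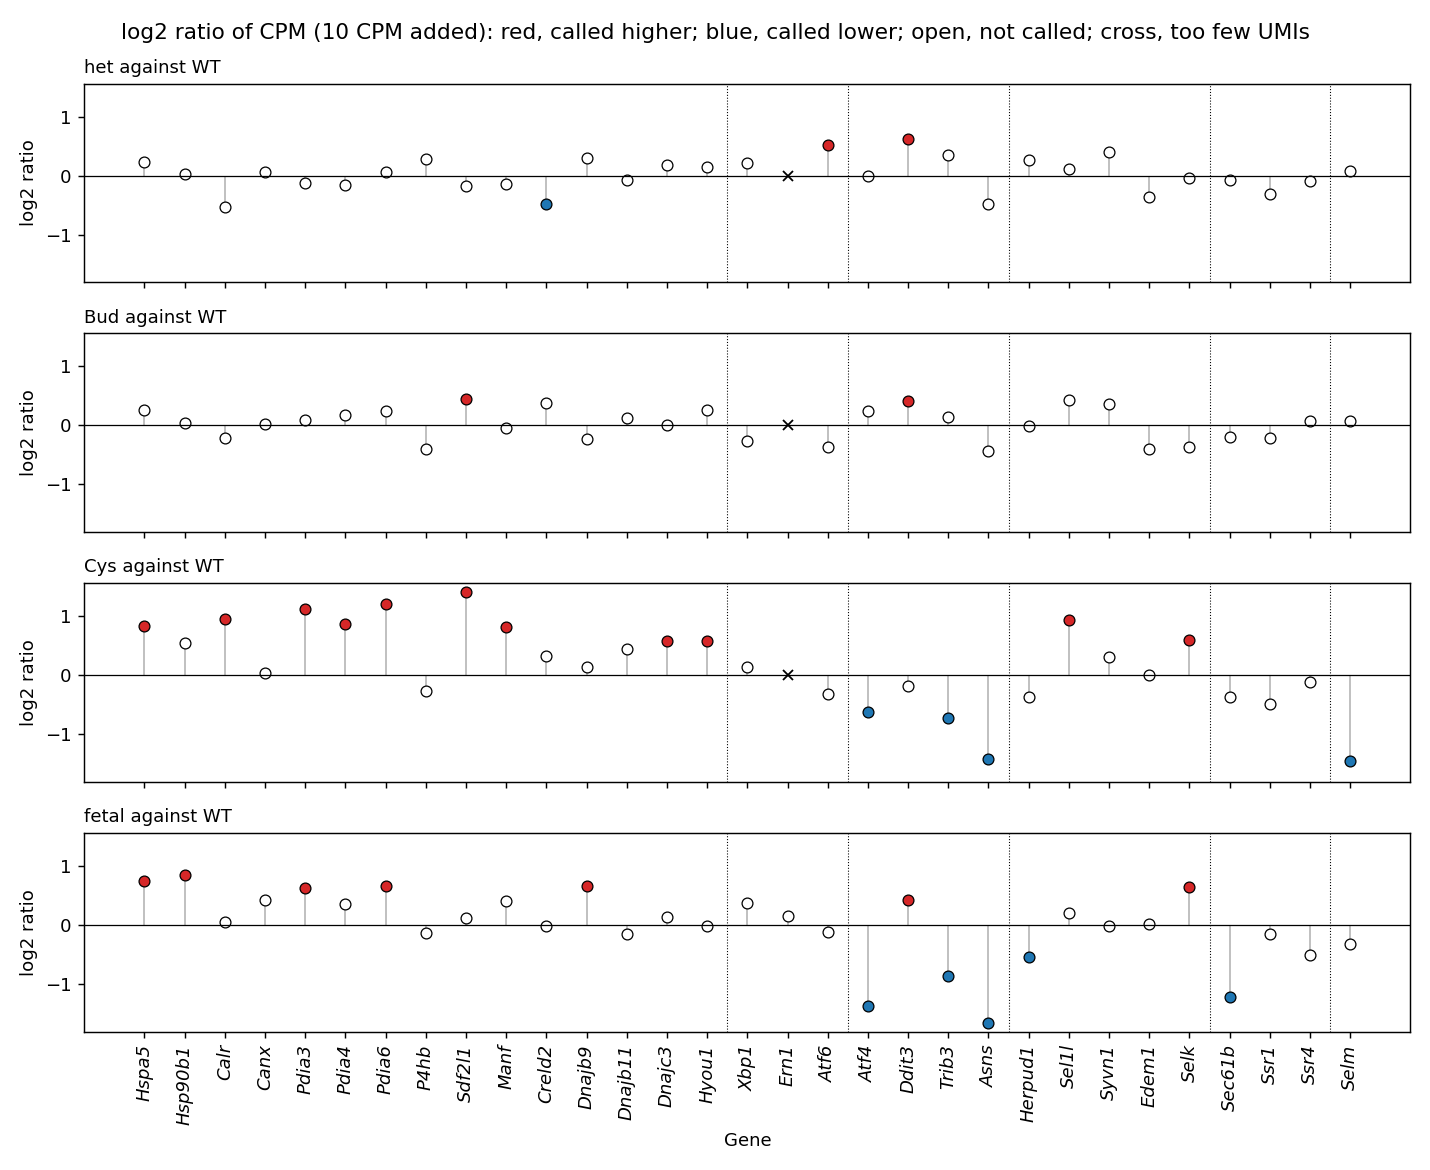
log2 ratio to WT of each of the 31 genes in het, Bud, Cys and fetal, with 10 CPM added to both levels. Red points were called higher, blue points called lower, open points not called, and crosses had under 10 UMIs. Cys has 11 red points, 9 of them chaperones, and 4 blue points, against 2 red and 0 blue in Bud.

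The comparison of Cys with Bud, which carry the same genotype label, does not use WT. Of the 15 chaperones 8 were called higher in Cys and none lower, where 19.2% of all genes were called higher and 19.5% lower. The median was 0.57 against -0.03 over all genes. Sdf2l1 was higher by 2.28-fold (1.83 to 2.85), Calr by 2.26-fold (2.14 to 2.38) and Pdia3 by 2.14-fold (1.94 to 2.36). Hspa5 was at a ratio of 1.498 (1.42 to 1.58), just under the 1.5-fold limit for a call. All 4 genes of the Atf4 branch were called lower in Cys, Ddit3 by 3.16-fold (1.71 to 6.16) and Atf4 by 1.87-fold (1.75 to 1.99). Selk was higher by 2.11-fold (1.83 to 2.43) and Selm lower by 10.0-fold (5.63 to 19.4).

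Cys and fetal also differed from each other. Of the 15 chaperones 5 were called higher in Cys and 1 lower (background 16.0% and 28.6% of all genes), with a median of 0.44 against -0.11. Calr was higher in Cys by 1.87-fold (1.79 to 1.96), Sdf2l1 by 3.21-fold (2.58 to 4.02) and Dnajb11 by 1.62-fold (1.38 to 1.89), and Dnajb9 was lower by 1.70-fold (1.29 to 2.25). Hspa5 was at a ratio of 1.06 (1.02 to 1.11), so this chaperone differed little. In the Atf4 branch, Atf4 was higher in Cys by 1.72-fold (1.59 to 1.87) and Ddit3 lower by 3.23-fold (1.80 to 6.14), whereas Asns was at a ratio of 1.19 (1.06 to 1.34). The gap in Atf4 is one of pooled levels. In wells thinned to 1000 UMIs, described further on, the shares with an Atf4 UMI were close, at 16.7% (13.0 to 21.0) in Cys and 15.6% (12.1 to 19.7) in fetal. Median-of-ratios scaling gave Cys an effective size of 0.953 times its total and fetal 1.04, which moved the log2 ratio of the chaperone sum from 0.22 to 0.35.

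Further genes of the pathway were counted in lists that surround the 31. Of 32 other ATF4 targets, 21 were called lower and 4 higher in Cys than in WT (median log2 ratio -0.75), and 18 lower and 2 higher in fetal (median -0.68). Over all genes the shares called were 17.6% higher and 22.0% lower in Cys, and 29.4% higher and 22.3% lower in fetal. Cth, an enzyme of cysteine synthesis, had 152 CPM in WT, 157 in het, 86.2 in Bud, 13.0 in Cys and 4.09 in fetal. Cys was lower by 11.7-fold (9.03 to 15.3) and fetal by 37.2-fold (24.8 to 58.6). Aldh18a1, the first step of proline synthesis, had 324 CPM in WT, 291 in het, 206 in Bud, 77.9 in Cys and 57.6 in fetal, lower by 4.16-fold (3.71 to 4.67) in Cys and 5.62-fold (4.98 to 6.35) in fetal. The folate enzyme Mthfd2 had 145 CPM in WT, 123 in het, 107 in Bud, 61.8 in Cys and 19.1 in fetal, lower by 7.59-fold (6.19 to 9.38) in fetal. These enzymes make or use amino acids, and all 3 were highest in WT or het. Atf5, a factor related to ATF4, had 67.4 CPM in WT, 74.9 in het, 67.2 in Bud, 13.2 in Cys and 10.4 in fetal, lower by 5.09-fold (3.87 to 6.76) in Cys. Shmt2, which turns serine into glycine, had 540.2 CPM in WT, 366 in het, 331 in Bud, 225 in Cys and 121 in fetal, lower by 4.48-fold (4.11 to 4.88) in fetal.

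The list was not uniform. Wars, the tryptophan tRNA synthetase, had 95.7 CPM in WT, 104 in het, 174 in Bud, 352 in Cys and 115 in fetal, higher in Cys by 3.68-fold (3.30 to 4.12). Bud had 10 of the 32 called lower and 3 higher (median -0.30), beside 5.79% higher and 8.67% lower of all genes. Psph, of serine synthesis, was lower by 1.97-fold (1.57 to 2.49) and Cth by 1.77-fold (1.55 to 2.02). In het, 1 was lower and 2 were higher (median -0.14), beside 8.43% higher and 8.83% lower of all genes, with Tars, the threonine tRNA synthetase, lower by 1.78-fold (1.63 to 1.95). In Cys against fetal 9 were higher and 7 lower, beside 16.0% higher and 28.6% lower of all genes.

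Of 24 other ER folding genes, 5 were called higher and 2 lower in Cys (median 0.13), and 5 and 4 in fetal (median -0.12). Over all genes the shares called were 17.6% higher and 22.0% lower in Cys, and 29.4% higher and 22.3% lower in fetal. The largest ratios lay in a few genes. Dnajc10, a reductase that breaks disulfides, had 60.0 CPM in WT, 49.4 in het, 62.6 in Bud, 533 in Cys and 332 in fetal, higher by 8.89-fold (7.79 to 10.2) in Cys and 5.53-fold (4.84 to 6.35) in fetal. Agr2, the isomerase needed for mucin folding, had 101 CPM in WT, 174 in het, 161 in Bud, 681 in Cys and 0 in fetal. It was higher in Cys by 6.73-fold (6.07 to 7.48), and in fetal, with no UMI, at least 198-fold lower against a floor of 3 UMIs. Fkbp11, a prolyl isomerase, was lower in Cys by 3.45-fold (2.43 to 4.99).

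Of 16 other regulators, 5 were higher and 1 lower in Cys (median 0.34), and 7 and 1 in fetal (median 0.40). Over all genes the shares called were 17.6% higher and 22.0% lower in Cys, and 29.4% higher and 22.3% lower in fetal. Ern2, the IRE1 relative of mucus-making epithelium, had 8.92 CPM in WT, 12.3 in het, 24.5 in Bud, 121 in Cys and 0.341 in fetal, higher in Cys by 13.6-fold (9.72 to 19.6) and in Bud by 2.75-fold (1.86 to 4.14). The fetal value is 2 UMIs. Creb3l1, a membrane-bound factor related to ATF6, had 64.4 CPM in WT, 129.7 in het, 105 in Bud, 299 in Cys and 87.5 in fetal, higher in Cys by 4.64-fold (4.06 to 5.31). Nupr1, a stress factor, had 44.6 CPM in WT, 55.7 in het, 27.6 in Bud, 10.8 in Cys and 67.9 in fetal, lower in Cys by 4.11-fold (3.02 to 5.69) and higher in fetal by 1.52-fold (1.27 to 1.82). Wfs1, an ER membrane protein that restrains ATF6, had 12.6 CPM in WT, 13.7 in het, 5.24 in Bud, 21.1 in Cys and 68.0 in fetal, higher in fetal by 5.38-fold (4.01 to 7.35). In het 5 of 16 were higher and 0 lower, beside 8.43% higher and 8.83% lower of all genes, Creb3l1 first with 2.01-fold (1.74 to 2.34).

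Of the other degradation genes, 1 of 15 tested was higher in Cys (Ube2g2, a ubiquitin-conjugating enzyme, by 1.74-fold (1.27 to 2.42)) and 1 lower (Derl1, a channel protein of the retrotranslocon, by 1.66-fold (1.47 to 1.89)). In fetal 5 were higher, Herpud2 by 2.11-fold (1.69 to 2.65), and 1 lower. Over all genes the shares called were 17.6% higher and 22.0% lower in Cys, and 29.4% higher and 22.3% lower in fetal, so the share of degradation genes higher in fetal is near the background. Of 29 other genes of translocation and early modification, 1 was higher and 1 lower (Rrbp1, a ribosome receptor, by 1.61-fold (1.47 to 1.77)) in Cys, and 3 and 2 in fetal. Sec11c, a signal peptidase subunit, had 142 CPM in WT, 121 in het, 184 in Bud, 221 in Cys and 67.0 in fetal, higher in Cys by 1.55-fold (1.40 to 1.72) and lower in fetal by 2.12-fold (1.86 to 2.42). In that list 27 of 29 genes were not called in Cys.

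**Figure D4:**
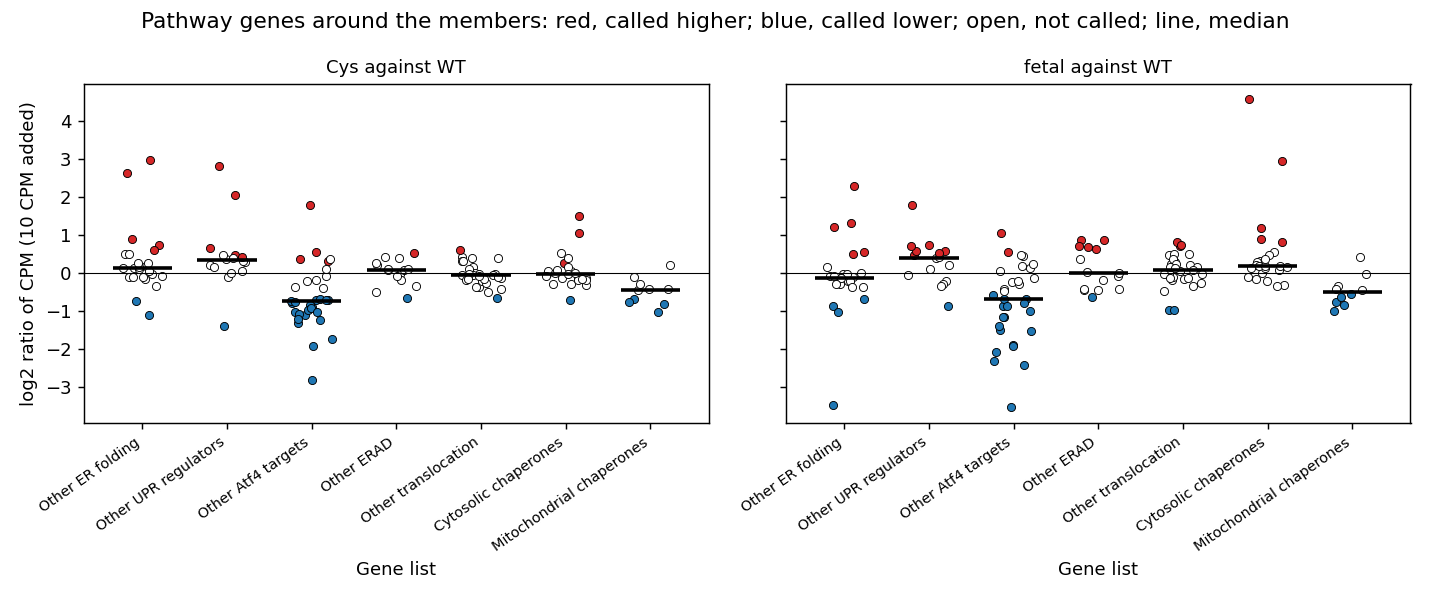
log2 ratio to WT, with 10 CPM added to both levels, of the pathway genes outside the 31 and of cytosolic and mitochondrial chaperones, for Cys (left) and fetal (right). Points are genes, red called higher, blue called lower, open not called, and lines are list medians. The other ATF4 targets have the lowest median in both panels (-0.75 and -0.68).

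In single wells, Cys and fetal also had the highest median chaperone level and the lowest median Atf4 branch level. The median well gave 2809 chaperone CPM in WT, 2675 in het, 3050.0 in Bud, 4592 in Cys and 4125 in fetal. From the 10th to the 90th percentile, wells ran from 1419.8 to 4715 in WT and from 2172 to 7644 in Cys. The wells of the libraries therefore overlapped widely. For the Atf4 branch the median well gave 672 CPM in WT, 489 in het, 614 in Bud, 337 in Cys and 212 in fetal. Without the wells of over 100000 UMIs, both of which were in Cys, no sum and no ratio of the 31 genes moved beyond its counting interval.

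Depth per well differed between libraries, so each well was also thinned to 1000 UMIs. Then 31.8% of WT, 47.1% of Cys and 50.9% of fetal wells held an Hspa5 UMI, against 81.1%, 91.4% and 97.3% without thinning. For Atf4 the thinned shares were 35.4% in WT, 16.7% in Cys and 15.6% in fetal, against 86.4%, 79.7% and 79.8% without thinning. Fetal stood above Cys for Hspa5 in the thinned shares but below it in CPM, so no order is read between them. No cell type of the gut is known to lack these genes, so no share of wells could serve as background. Within a library, chaperone and Atf4 branch levels were weakly related over wells, with a Spearman rho of 0.0938 (fetal, 371 wells) to 0.322 (het, 351 wells). Wells share 1 library and both levels also ran with depth, with a rho to UMIs per well of up to 0.474 for chaperones (het) and 0.399 for the Atf4 branch (WT), so these values are a description.

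**Figure D5:**
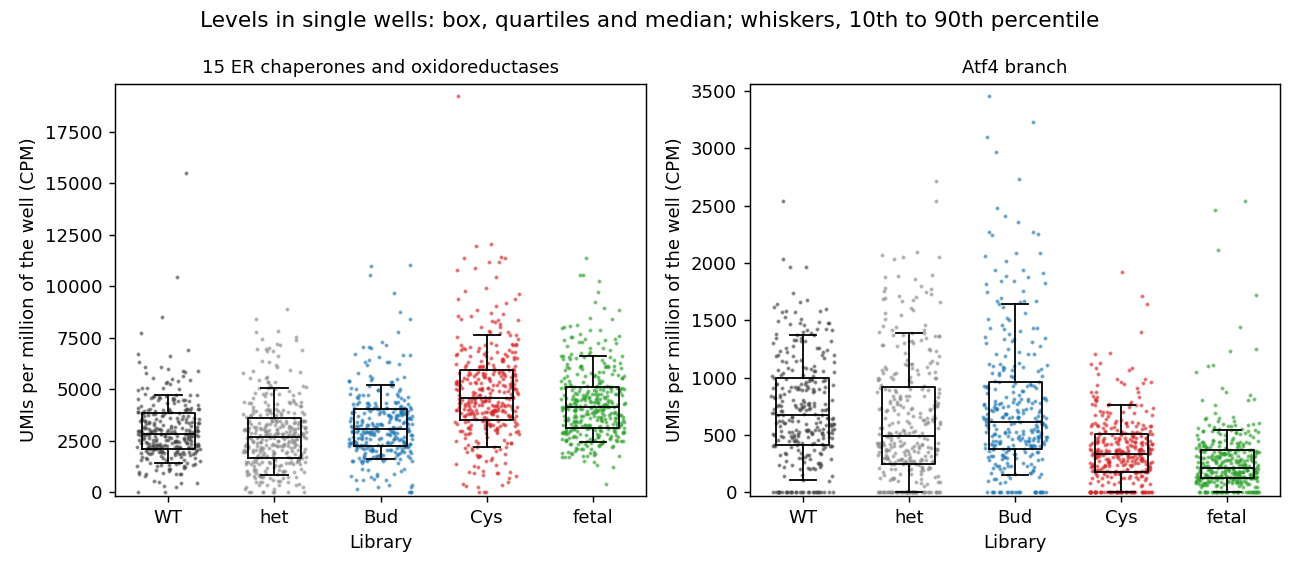
Summed ER chaperones (left) and summed Atf4 branch (right) in each well, in CPM of the well. Points are wells, boxes span the quartiles with the median, and whiskers reach the 10th and 90th percentiles. The median chaperone level is highest in Cys (4592 CPM), the median Atf4 branch level is lowest in fetal (212 CPM), and wells of all libraries overlap.

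Secretory cells were examined within each library by setting wells with at least 0.5% of UMIs from 1 of the goblet, Paneth or enteroendocrine lists against the rest. There were 33 such wells in WT, 41 in het, 64 in Bud, 8 in Cys and 1 in fetal. Goblet markers placed most of them: 29 of 33 in WT, 36 of 41 in het and all 64 in Bud. The share is a range and not a cell type, and 21 wells lay between 0.25% and 1% in WT, with 11 such in het, 18 in Bud and 6 in Cys. Chaperones were higher in these wells in WT, het, Bud and Cys: WT by 1.91-fold (1.80 to 2.03), het by 1.55-fold (1.47 to 1.64), Bud by 1.64-fold (1.56 to 1.73) and Cys by 1.31-fold (1.18 to 1.45). By the median well, the levels were 3874 against 2745 CPM in WT, 3821 against 2620.0 in het, 4489 against 2886 in Bud and 6139.6 against 4557 in Cys, a smaller gap than the pooled one in WT. The 8 Cys wells also held a median of 27757 CPM of gastric markers, above their median of 21391 CPM of goblet markers. The marker-rich wells were shallower, with a median of 3466 UMIs against 13997 in WT, 6000 against 12064.5 in het and 3038.5 against 14377 in Bud, and the part of depth was not tested. The wells are not replicates, since all wells of a library come from 1 plate.

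In WT, 9 of the 15 chaperones were called higher in these wells and none lower, where 9.28% of all genes were called higher and 8.36% lower. In het 5 were higher (background 8.80% higher and 9.51% lower), in Bud 8 (10.1% and 11.4%) and in Cys 3 (3.33% and 3.09%). In WT, Pdia6 was higher by 2.84-fold (2.34 to 3.42), Calr by 2.47-fold (2.16 to 2.82) and Xbp1 by 1.74-fold (1.40 to 2.15). Of the UMIs in these wells, 1 well gave 35.4% for Pdia6 and 29.9% for Calr. The sensor transcript Atf6 was higher by 2.43-fold (1.48 to 3.79) in WT, and 72.7% of those UMIs came from 1 well. Sel1l was higher by 2.30-fold (1.47 to 3.47) in WT, 2.32-fold (1.64 to 3.22) in het and 3.43-fold (2.64 to 4.42) in Bud.

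Selm showed the largest such difference of the 31 genes in WT, het and Bud. It was 28.5-fold (18.7 to 43.7) higher in the marker-rich wells of WT, 17.6-fold (12.0 to 25.9) in het and 36.4-fold (23.3 to 58.5) in Bud. In Cys, the library with the lowest Selm level, its ratio rests on 2 UMIs in 8 wells. The summed Atf4 branch had no common direction: WT gave a ratio of 0.893 (0.753 to 1.05), het of 1.46 (1.30 to 1.64) and Bud of 1.40 (1.26 to 1.56). Its member Ddit3 was called higher in the marker-rich wells of WT, by 5.15-fold (1.24 to 16.2), het, by 3.72-fold (1.79 to 7.18), and Bud, by 2.96-fold (1.18 to 6.56). Those calls rest on 4, 12 and 8 UMIs in these wells, and Cys had 0 there. Asns was lower in the marker-rich wells of WT, at 226 against 353 CPM. With all marker-rich wells left out, the log2 ratio of the chaperone sum to WT was 0.69 in Cys, against 0.63 with them, and 0.46 in fetal, against 0.40.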

How the data were processed

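Single cells of 5 libraries were sorted into plates and sequenced by SORT-seq with CEL-Seq2 chemistry, which reads the 3' end of transcripts, per the labels' protocols. Tools listed in the submitters' processing notes are featureCounts 1.5.2, Seurat 4.1.0 and STAR 2.6.1, with the build GRCm38. The sources used here do not say how strand and reads mapping to several places were treated. The authors deposited, per gene and well, raw UMI counts, raw read counts, and estimated counts of transcripts, which are UMI counts corrected for collisions among 4096 identifier codes. UMI counts were used. Read counts as deposited served for reads per UMI (2.55 to 3.29), and the estimated counts as an alternative. No gene of the mitochondrial genome was found in the tables used.

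Wells under 1000 UMIs without ERCC spike-ins were left out. Cells were sorted singly and no doublet caller was run. UMIs were summed over the wells of a library and scaled to its total. Levels have exact Poisson intervals, ratios exact conditional binomial intervals. These cover counting error only, and so does the floor of 3 UMIs for a count of 0. No model was fitted, since each group has 1 library. Log2 ratios of single genes, and their medians over lists, have 10 CPM added to both levels, which understates the change of low genes. Log2 ratios of summed levels have nothing added. The steps were tested on counts simulated from the pooled WT and Cys means with counting error only, which the intervals also assume. That test holds no variation between wells, plates or cultures and so says nothing about it. The alternatives were median-of-ratios scaling, equal weight per well, other limits on wells, genes and fold, wells left out, and het as reference.

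The 31 genes and the lists were chosen with earlier results of these data known. All 31 are reported. Of each further list, the genes named are among the 4 with the largest log2 ratio in a comparison, given at least 20 CPM in either library. Promoters (RefSeq, GRCm38.p6) were searched for motifs in the 28 matched genes of the 31, in the further lists and over all promoters. Whole stretches were taken for 8 genes: Hspa5, Atf4 and those with the largest ratio in Cys against WT among chaperones, sensors and Atf4 branch. The 4 printed were picked from these with their values and motifs known. Python 3.11.15, numpy 2.4.6, pandas 2.3.3, scipy 1.17.1 and matplotlib 3.10.9 were used.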

Additional observations from a re-analysis of the deposited data

Results flagged for a closer look

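Wfs1, an ER membrane protein that restrains ATF6, differed from WT in opposite directions in the 2 libraries labelled Lkb1 -/-. It had 12.6 CPM in WT, 13.7 in het, 5.24 in Bud, 21.1 in Cys and 68.0 in fetal. The ratio of Bud to WT was 0.415 (0.239 to 0.696), called lower, and that of Cys to WT was 1.67 (1.18 to 2.38), called higher. Both comparisons share the WT library, each library is single, and the difference between them was not tested against replicates.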

How the results depend on the processing

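No paired analysis was possible because each group has 1 library. No sum, count or ratio of the 31 genes moved beyond its counting interval with wells of at least 2000 UMIs or without the wells rich in Kcnq1ot1, and no count of calls moved by more than 1.5 times with no minimum of UMIs, with a minimum of 50 or with the transcript table. That table moved the chaperone sum of Cys against fetal to 0.20. Of the log2 ratios of single genes over all alternatives, 1597 stayed within their counting interval and 130 moved beyond it. The settings differed: with equal weight for each well 134 stayed and 48 moved, and with het as reference 49 stayed and 40 moved. Wells of at least 2000 UMIs, the transcript table, and leaving out the largest, over-100000-UMI or Kcnq1ot1-rich wells moved no single gene. A change of sign was counted apart only for genes called, where 2 turned. Some ratios of genes not called also changed sign, such as Calr in Bud with het as reference. All other values are also log2 ratios unless said otherwise, and where no construction shows it, the cause was not tested.

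Median-of-ratios scaling gave chaperone sums of 0.056 in het, 0.020 in Bud, 0.73 in Cys and 0.37 in fetal against WT, 0.71 in Cys against Bud and 0.35 in Cys against fetal, and Atf4 branch sums of -0.86 in Cys against WT and 0.69 in Cys against fetal. Equal weight for each well gave chaperone sums of -0.11 in het, 0.11 in Bud, 0.67 in Cys and 0.51 in fetal against WT, 0.56 in Cys against Bud and 0.16 in Cys against fetal. It gave Atf4 branch sums of -1.35 in fetal against WT and 0.38 in Cys against fetal, and differences between the sums of 0.10 in het against WT and -0.22 in Cys against fetal. By ratio and UMI minimum alone, equal weight also put 1 gene higher and 2 lower in het and 5 higher in Bud. No interval was used there, so these counts are looser than the calls defined above. Without the secretory marker-rich wells the chaperone sum was 0.69 in Cys and 0.46 in fetal against WT and 0.71 in Cys against Bud.

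With het in place of WT as reference, the Atf4 branch sum was 0.16 in Bud, -0.80 in Cys and -1.36 in fetal, and the difference between the sums -0.20, 1.41 and 1.75. Genes called lower then numbered 3 in Bud and 7 in Cys, and Ddit3 turned to -0.21 in Bud and -0.19 in fetal. A limit of 2-fold, which by construction calls fewer genes, left 1 higher and 0 lower in het, 1 higher in Bud, 5 in Cys, 2 in fetal, 4 in Cys against Bud and 1 in Cys against fetal. Shares called over all genes were not computed under the alternatives. The counts of genes in this section therefore have no background beside them and are not read as above or below it.

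The next alternatives were chosen after seeing the data. Without the largest well of each library, 1 gene was called higher in het. Without Asns the Atf4 branch sum was 0.044 in het, 0.26 in Bud, -0.67 in Cys and -1.38 in fetal against WT and 0.71 in Cys against fetal, with differences between the sums of -0.026, -0.27, 1.30, 1.78 and -0.48 in that order. Without Atf4 the branch sum was -0.38 in het, -0.37 in Bud, -1.47 in Cys and -1.64 in fetal against WT, -1.10 in Cys against Bud and 0.17 in Cys against fetal, with differences of 0.40, 0.35, 2.09, 2.04, 1.74 and 0.055.

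The ratio of chaperones in marker-rich to other wells, taken at 0.25% of UMIs from markers, was 1.72 in WT, 1.46 in het, 1.14 in Cys and 1.23 in fetal. At 1% it was 2.20 in WT and 1.81 in Bud, and that of the Atf4 branch in Bud was 1.14. With 1 library per group, differences between libraries cannot be told apart from differences between plates or cultures, and counting intervals hold neither. Genes with few UMIs, Ern1 and Ddit3 above all, limit what could be called.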

Other observations

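Of 10 chaperones and proteases of mitochondria, none was called higher and 4 were called lower in Cys against WT (median log2 ratio -0.44), and none higher and 5 lower in fetal against WT (median -0.50). Over all genes the shares called were 17.6% higher and 22.0% lower in Cys, and 29.4% higher and 22.3% lower in fetal. Hspd1, the mitochondrial chaperonin, had 606 CPM in WT, 663 in het, 562 in Bud, 376 in Cys and 295 in fetal, lower by 1.61-fold (1.52 to 1.71) in Cys and 2.05-fold (1.93 to 2.18) in fetal. Its partner Hspe1 had 907 CPM in WT, 881 in het, 783 in Bud, 528 in Cys and 497 in fetal, lower by 1.72-fold (1.63 to 1.80) in Cys and 1.82-fold (1.74 to 1.92) in fetal. Trap1, the mitochondrial Hsp90, had 88.0 CPM in WT, 84.2 in het, 86.9 in Bud, 38.1 in Cys and 47.4 in fetal, lower by 2.31-fold (1.93 to 2.77) in Cys. In het and Bud 0 of the 10 were called in either direction.

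Of 24 cytosolic chaperones, 3 were called higher and 1 lower in Cys (median -0.03), and 5 and 0 in fetal (median 0.19), all under the shares over all genes just given. Hspb1, a small heat shock protein, had 0 CPM in WT, 0.228 in het, 0 in Bud, 10.8 in Cys and 227 in fetal, at least 305-fold higher in fetal against a floor of 3 UMIs in WT. Hspa1b, an inducible cytosolic Hsp70, had 3.72 CPM in WT, 11.1 in het, 12.1 in Bud, 28.7 in Cys and 95.5 in fetal. It shares most of its sequence with Hspa1a, so reads may not be told apart between them. Cct5, a subunit of the cytosolic chaperonin, had 368 CPM in WT, 264 in het, 434 in Bud, 221 in Cys and 295 in fetal, lower in Cys by 1.67-fold (1.54 to 1.80).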
